A study of Mus musculus with 6 samples.

Results

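Androgenetic haploid embryonic stem cells (AG-haESCs) were compared with round sperm by RNA sequencing. The comparison uses 4 of the 6 libraries of the series, chosen by their labels. They are the 3 AG-haESC lines A129-2, AOS-14 and AOS-16, with 1 library each, and 1 library labelled round sperm, whose cell type field reads sperm. All 4 carry the strain label F1 hybrid C57BL/6 X DBA/2, a cross also called BDF1. Each AG-haESC line came from an embryo made by injecting a sperm head into an MII oocyte after its spindle had been removed, with activation in SrCl2. The oocyte donors were BDF1 females of 8 to 10 weeks, and no label gives the age of the males. The lines were grown on feeders with serum replacement and 2i, which blocks MEK and GSK3, and haploid cells in G0/G1 were collected by sorting on a Hoechst stain. The label of the round sperm library repeats this text on culture and sorting, so how those cells were isolated cannot be read from it. Of 23889 genes listed, 15938 reached an FPKM (a count of fragments scaled to transcript length and library size) of at least 1 in any of the 4 libraries and were tested. The study's labels do not name a question for this comparison.

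Round spermatids are the cells that leave meiosis and are rebuilt into sperm. They grow a flagellum and an acrosome, store messenger RNA for later translation, replace most histones by protamines, and have a largely silent X chromosome. Stem cells in 2i divide rapidly, adhere to each other as compact colonies, and take up nutrients for growth. The pluripotency factors and protamines are taken here as markers only, and the account concerns the other programs.

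The labels were checked against marker genes. In the order A129-2, AOS-14 and AOS-16, which is kept throughout, the summed level of 12 pluripotent cell markers was 4460, 5701 and 4360 FPKM, against 256 FPKM in round sperm, of which Klf4 alone gave 219. Round spermatid markers summed to between 8.97 and 10.6 FPKM in the lines and 5996 FPKM in round sperm, and condensing spermatid markers to between 9.30 and 15.5 FPKM and 44080 FPKM. Because round spermatids store messenger RNA for later translation, these sums do not tell the spermatid stages apart. Spermatocyte markers were present in the round sperm library as well, at 1574 FPKM in sum, with Syce1 at 798 and Stag3 at 284 FPKM. The 12 Sertoli cell markers summed to 132, 246 and 158 FPKM in the lines and 16.2 FPKM in round sperm. Of these, 6 (Amh, Sox9, Wt1, Cldn11, Shbg and Fshr) were under 1 FPKM in all 4 libraries, while Ctsl, Aard, Dmrt1 and Gata4 were higher in the lines and Clu was at 5.6 FPKM in round sperm. Leydig and peritubular markers summed to 14.2, 18.5 and 21.2 FPKM against 11.7 FPKM, with Hsd3b1 and Lhcgr at 0 in all 4 and Insl3 at 1.88 FPKM in round sperm. Blood markers summed to 12.6, 22.6 and 16.4 FPKM against 14.7 FPKM, with Hbb-b1 at 6.65, Emr1 at 3.10 and Cx3cr1 at 2.37 FPKM in round sperm. The part of such cells in the results was not tested. Depth, estimated from the steps of low FPKM values, was about 8560000, 18500000 and 10100000 fragments in the lines and about 10000000 in round sperm. The deposited values summed to 509359, 707325 and 546442 FPKM in the lines and to 1239225 FPKM in round sperm, and how the authors scaled the libraries to each other is not given in the sources used here.

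Differences are the mean of log2(FPKM + 1) over the 3 lines minus log2(FPKM + 1) in round sperm, a scale that understates the change of low genes. A gene was said to rise or fall when its difference was at least 1 and its Benjamini-Hochberg adjusted p under 0.05 by limma. A gene under 1 FPKM in all 3 lines passed the filter through round sperm alone and could not rise. A gene under 1 FPKM in round sperm could likewise not fall. The spread comes from the 3 lines alone (2 residual degrees of freedom), and the test takes the single round sperm library to be as variable as they are. The p-values therefore do not cover variation between round sperm samples. Leaving out a line lowers the residual degrees of freedom, so a call can then be lost with little change in the difference. By this rule 3632 genes (22.8%) rose and 6232 (39.1%) fell, 61.9% in all, and the median difference over all genes was -0.49. When all libraries were rescaled to the same total, 4867 genes rose and 4481 fell, the share of calls that were rises went from 36.8% to 52.1%, and the median moved to 0.40. List medians are therefore also given relative to the median of all genes. All 35 gene lists described below kept their side of that median under 3 rescalings. Each rescaling keeps the order of genes within a library, so this says little about the unknown scaling. Counts of called members did change and are given for several lists. In RNA from bulk samples, fewer cells of a type and less RNA per cell cannot be told apart.

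Most of the round sperm pool came from genes that were called lower in the lines. The calls used these same values and the deposited scaling, so unequal shares follow from the choice of genes and are a description only. Genes that fell made up 76.2% of the summed FPKM of round sperm and 10.0%, 7.89% and 9.22% of the lines. Genes that rose made up 3.53% of round sperm and 54.3%, 47.0% and 56.5% of the lines. Genes that were not called made up the rest, 20.2% of round sperm and 35.5%, 45.1% and 34.2% of the lines. At least 10 FPKM in round sperm with under 1 FPKM in all 3 lines was found for 1733 genes, which held 31.0% of the round sperm total, and the opposite for 718 genes. At a level of 100 FPKM the counts were 735 and 26. On the deposited scale the round sperm pool thus held more genes that were abundant there and near 0 in the other cells.

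**Figure D1:**
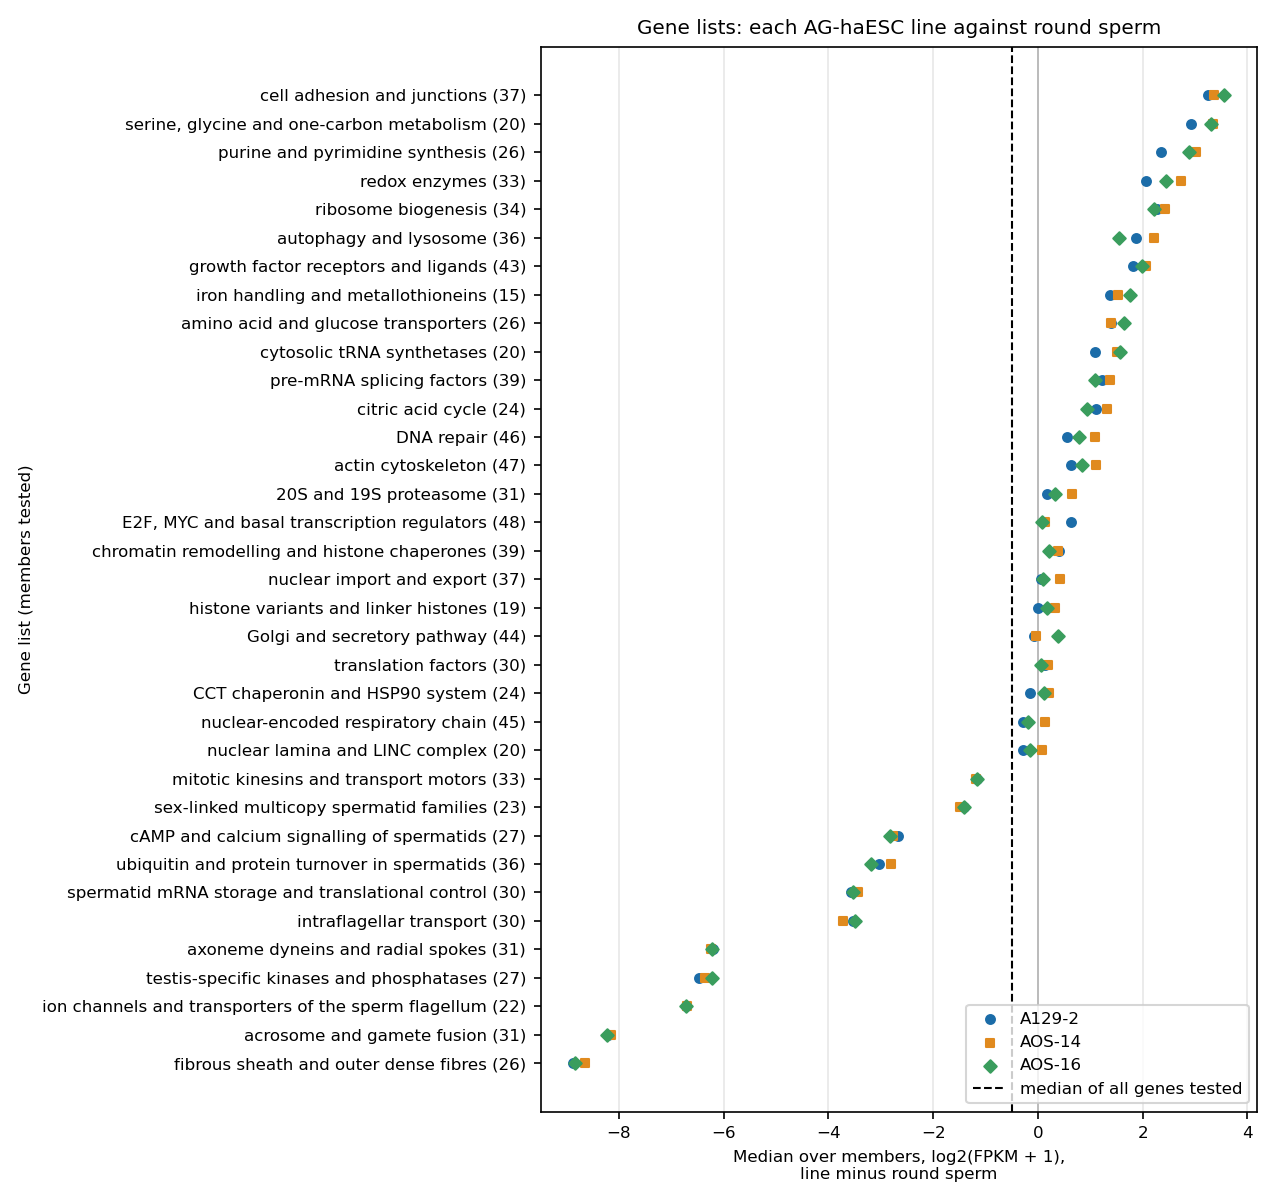
Each point is the median, over the tested members of a gene list (number in brackets), of the log2(FPKM + 1) difference between an AG-haESC line and round sperm, and the dashed line marks the median of all genes tested. The 3 lines lie close together for the sperm structure lists at the bottom, from -8.81 for the fibrous sheath to -3.57 for intraflagellar transport (medians of the mean difference), and cell adhesion, serine metabolism and nucleotide synthesis stand at the top.

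Genes of the sperm cell's structures fell almost without exception. Of 26 fibrous sheath and outer dense fibre genes, which form the sleeve around the flagellum, all 26 fell (median -8.81, or -8.32 relative to all genes). Of 31 acrosome and gamete fusion genes 30 fell (median -8.20), and so did 30 of 31 axonemal dynein, tektin and radial spoke genes (median -6.34). All 30 genes of intraflagellar transport, the train system that builds cilia and flagella, fell as well (median -3.57), against 39.1% of all genes. Members under 1 FPKM in every line, such as Crisp2, Tekt4 and Zpbp2, could not rise. How many members that covers was not counted, so these counts only describe lists made of sperm genes.

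Ropn1l, a fibrous sheath protein, was at 0.888, 1.29 and 0.508 FPKM in the lines and at 3819 FPKM in round sperm, and fell by 11 ± 0.31 (log2 ± SE, limma, adjusted p = 0.000644). Crisp2, a protein of the acrosome and outer dense fibres, was at 0.0854, 0.121 and 0 FPKM against 3286 FPKM and fell by 11.59 ± 0.12 (adjusted p = 7.87e-05). Tekt4, a tektin filament protein, was at 0, 0.0380 and 0 FPKM against 813 FPKM. The groups were far apart for these genes, and no line stood out. Zpbp2, which binds the egg coat, was at 0.0968, 0 and 0.0831 FPKM against 930.3 FPKM. Rsph1, a radial spoke protein, was still measured in the lines, at 1.65, 3.95 and 6.34 FPKM against 2026 FPKM (fell by 8.79 ± 0.73, adjusted p = 0.00540). The members that did not fall were Gopc, a Golgi protein needed for acrosome formation that many cells express, at 7.48, 5.25 and 7.16 FPKM against 6.36 FPKM, and Dynlt1b, a dynein light chain. Dynlt1b was at 107, 4.81 and 123 FPKM against 8.09 FPKM, so AOS-14 lay below round sperm and the other lines above it (difference 2.23 ± 2.45, adjusted p = 0.476). Without AOS-14 it was called higher (adjusted p = 0.0172).

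Intraflagellar transport genes fell less far and remained measurable in the lines. Ift43, a subunit of the retrograde complex, was at 15.8, 15.9 and 14.2 FPKM and at 549.6 FPKM in round sperm, and fell by 5.08 ± 0.12 (adjusted p = 0.000436). Ift140, of the same complex, was at 2.25, 1.98 and 2.53 FPKM against 245 FPKM and fell by 6.25 ± 0.15 (adjusted p = 0.000452). The 3 lines were within a narrow range and lay well below round sperm for both genes. After rescaling to the same total 20 of the 30 genes fell, and the list's median relative to all genes was -3.03, against -3.08 before.

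Signalling genes of the flagellum fell with the structures. Of 22 ion channels and transporters of the sperm tail 19 fell (median -6.65), of 27 testis-specific kinases and phosphatases 22 (median -6.44), and of 27 genes of cAMP and calcium signalling 18 (median -2.73). The shares that fell were 86.4%, 81.5% and 66.7%, against 39.1% of all genes. Catsper1, a pore subunit of the sperm calcium channel, was at 0, 0.0272 and 0 FPKM against 264 FPKM in round sperm. Atp1a4, the sodium pump subunit of the flagellum, was at 0.0330, 0.0769 and 0.0566 FPKM against 336 FPKM. Plcz1, the phospholipase by which sperm activate the egg, was at 0, 0.0255 and 0 FPKM against 307 FPKM. Each of these was near 0 in every line, so they passed the filter through round sperm alone and could not rise. The kinases Tssk1 and Tssk2 were at no more than 0.180 FPKM in a line and at 576 and 636 FPKM in round sperm.

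The members of these signalling lists that rose are not restricted to germ cells. Prkacb, a catalytic subunit of protein kinase A found in many cell types, was at 13, 10.8 and 12.3 FPKM against 0.822 FPKM and rose by 2.83 ± 0.15 (adjusted p = 0.00235). Pim3, a kinase of cell survival, was at 69.3, 61.3 and 43.2 FPKM against 2.52 FPKM and rose by 4.04 ± 0.35 (adjusted p = 0.00586). Prkaca, the other broadly expressed catalytic subunit of protein kinase A, was at 104, 56.8 and 49.7 FPKM against 176 FPKM and passed no threshold (difference -1.39 ± 0.56, adjusted p = 0.124). It lies on chromosome 8, and without A129-2 it was called lower (adjusted p = 0.0275). Calm2, a calmodulin gene, was at 214, 215 and 164 FPKM against 209 FPKM, so that round sperm lay inside the range of the lines. Its difference of -0.09 was not called, and after quantile normalization it was 1.68 and called.

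**Figure D2:**
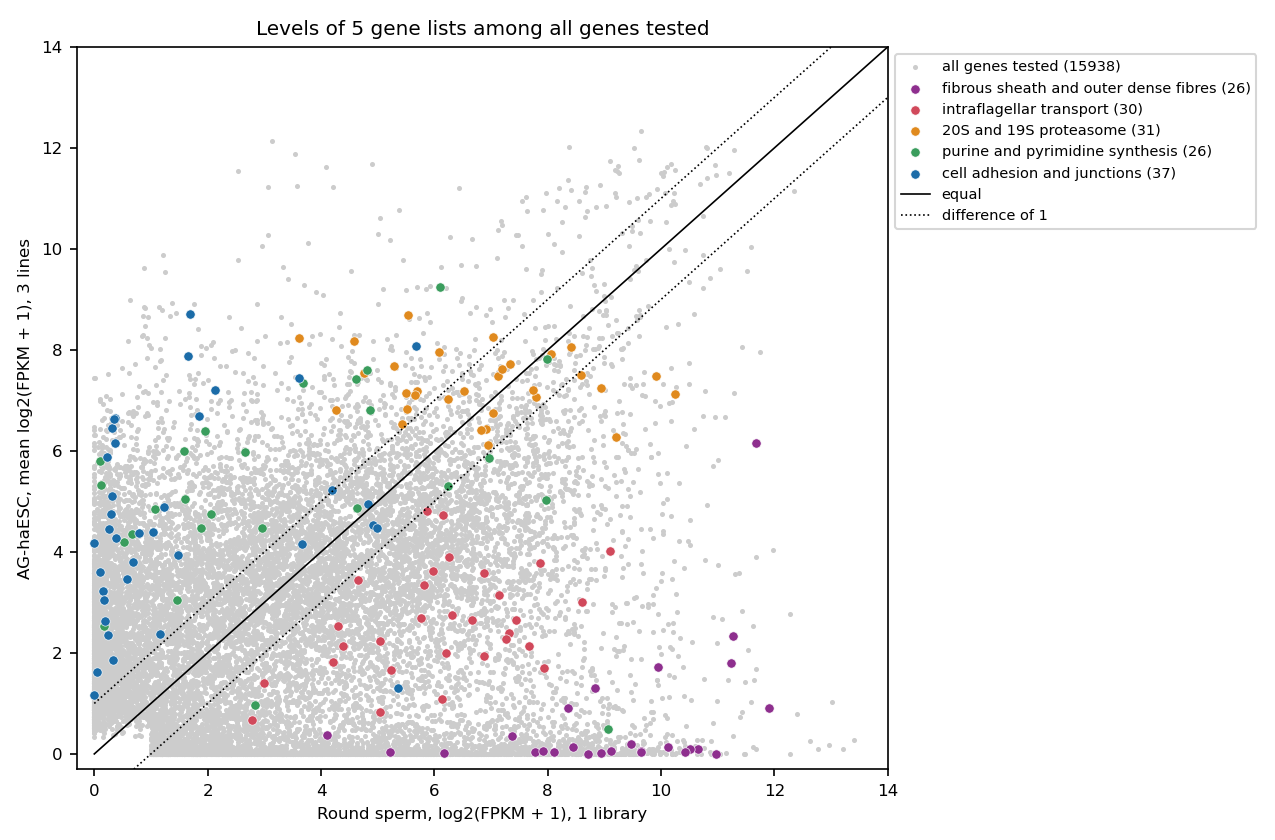
Each point is a gene, with its level in the round sperm library on the x axis and the mean level of the 3 AG-haESC lines on the y axis, both as log2(FPKM + 1), and 5 lists are coloured among all 15938 genes tested. Fibrous sheath genes lie along or near the bottom except Odf2, intraflagellar transport genes lie between the bottom and the diagonal, proteasome genes straddle the diagonal, and adhesion and nucleotide synthesis genes lie mostly above it.

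Genes by which spermatids store and later translate their messenger RNA mostly fell. Of 30 such genes 20 fell and 3 rose, 66.7% and 10.0% against 39.1% and 22.8% of all genes (median -3.51). Of the 3 rises 1 remained without AOS-14. Ybx2, the germ cell Y-box protein that holds messenger RNA in particles, was at 4.40, 4.45 and 5.59 FPKM against 3158 FPKM in round sperm and fell by 9.09 ± 0.18 (adjusted p = 0.000303). Ddx25, a testis RNA helicase that regulates translation in spermatids, was at 2.25, 1.82 and 1.31 FPKM against 974 FPKM. Papolb, the cytoplasmic poly(A) polymerase of the testis, was at 4.14, 0.852 and 1.21 FPKM against 973 FPKM. All lines were low for these genes, with A129-2 highest for Papolb. Dazl, a germ cell RNA-binding protein, went the other way, at 82.9, 61.5 and 35.1 FPKM against 7.40 FPKM, and rose by 2.77 ± 0.61 (adjusted p = 0.0383). That call was lost without A129-2 (adjusted p = 0.0767) and without AOS-14 (adjusted p = 0.145), though all 3 lines lay above round sperm.

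The general translation factors were called in both directions. Of 30 tested 8 rose and 7 fell, 26.7% and 23.3% against 22.8% and 39.1% of all genes. The median was 0.06, or 0.56 relative to all genes, and at the same total 15 rose and 4 fell. Eif4a1, the helicase of the cap-binding complex, was at 1098, 1423 and 1140 FPKM against 77.0 FPKM and rose by 3.96 ± 0.22 (adjusted p = 0.00243). Eif4ebp1, which restrains cap-dependent translation until it is phosphorylated, was at 693, 481 and 487 FPKM against 15.4 FPKM and rose by 5.05 ± 0.30 (adjusted p = 0.00289). Eif4g3, a scaffold of that complex, was at 2.99, 4.89 and 4.49 FPKM against 239 FPKM and fell by 5.57 ± 0.31 (adjusted p = 0.00245), whereas its broadly expressed relative Eif4g1 was at 127, 150.3 and 108 FPKM against 106 FPKM and was not called as deposited. At the same total Eif4g1 was called higher (adjusted p = 0.0153). Members of the cap-binding complex were thus called in both directions. Eef2, the elongation factor that moves the ribosome, was at 1056, 868 and 1110 FPKM against 1380 FPKM and was not called (difference -0.46 ± 0.21). Eef1a1 was listed at 0 in all 3 lines and at 2097 FPKM in round sperm, but at over 100 FPKM in both embryonic stem cell libraries labelled XX, so its 0 may be a failed estimate and its fall is not counted on here.

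Spermatids switch on copies of broadly expressed genes, many of them retrogenes, that is, copies made from messenger RNA of a parent gene and inserted elsewhere. For 45 pairs of a broadly expressed gene and a relative, here called its testis copy, both levels were compared, and in 44 both members were tested. The name is loose for some. Csnk2a2 (43.9, 19.5 and 20.8 FPKM) and Tubb4b (188, 154 and 95.5 FPKM) were well measured in the lines, and the counts below include such pairs. The share of the testis copy in the summed FPKM of a pair is a ratio within a library, so the scaling between libraries drops out of it. This share was higher in round sperm than in all 3 lines in 43 of the 44 pairs. The testis copy held over 50% of the pair in round sperm in 40 pairs and in all 3 lines in 1 pair, Rbmx/Rbmxl2. It held over 50% in round sperm and under 10% in every line in 32 pairs. By the calls, 38 testis copies fell, 29 broadly expressed members rose, and in 24 pairs both happened. Testis copies under 1 FPKM in every line could not rise. The 24 went down to 15 without AOS-14, and 10 of them were called in opposite directions under every setting in which both members were tested.

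**Figure D3:**
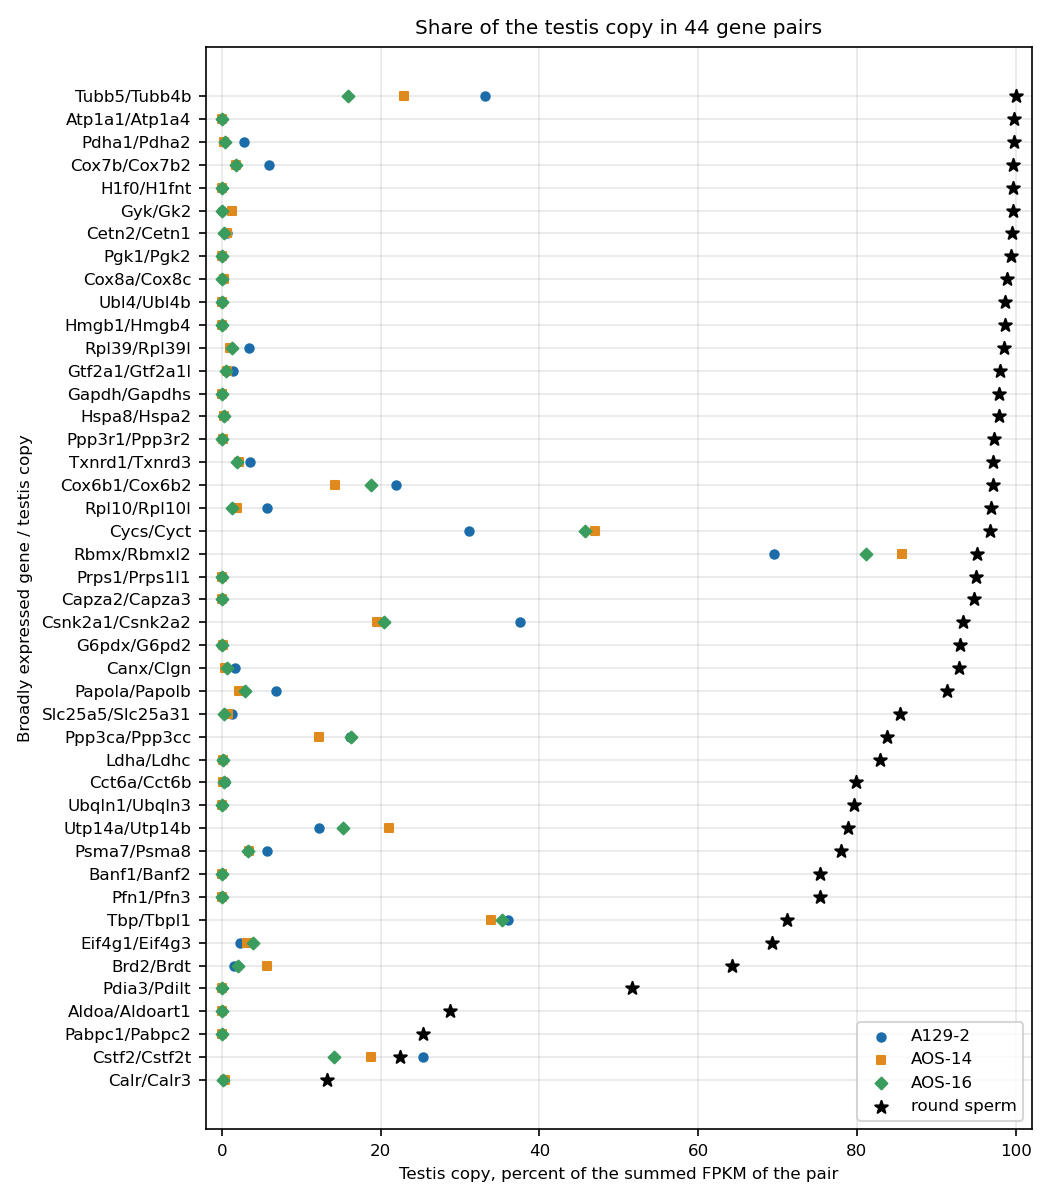
For each of 44 gene pairs (broadly expressed gene / testis copy) the x axis gives the testis copy's percent of the pair's summed FPKM, as a star for round sperm and as a circle, square or diamond for the 3 AG-haESC lines. Stars lie above 50% in 40 pairs and the line symbols lie under 10% in most of them, with Rbmx/Rbmxl2, Cycs/Cyct and Csnk2a1/Csnk2a2 among those where the lines keep a larger share.

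In 14 of the 44 pairs the parent lies on the X chromosome, and 9 of these were called in opposite directions, against 15 of the 30 with an autosomal parent. Pgk1, the glycolytic enzyme phosphoglycerate kinase, was at 1112, 928 and 1859 FPKM against 7.35 FPKM. Pgk2, its retrogene on chromosome 17, was at 0, 0.0364 and 0 FPKM against 1230 FPKM, and fell by 10.25 ± 0.09 (adjusted p = 5.70e-05). Pgk2 held 99.4% of the pair in round sperm and at most 0.00392% in a line. Pdha1, the E1 alpha subunit of pyruvate dehydrogenase, was at 161, 225 and 166 FPKM against 0.179 FPKM, and Pdha2 on chromosome 3 was at 4.66, 0.587 and 0.602 FPKM against 107 FPKM. The Pdha2 call (fell by 5.47 ± 1.04, adjusted p = 0.0283) was lost without AOS-14 (adjusted p = 0.108), without AOS-16 (0.0972) and at the same total (0.0671), while its share of the pair went from 99.8% in round sperm to between 0.261% and 2.81% in the lines.

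The windows of 250 bases before the annotated starts of these 4 genes are shown because the members of each pair went in opposite directions with different upstream sequence. They are from RefSeq on GRCm38.p6, another build than the mm9 of the deposited values, and the 2 pairs were chosen after their values were seen, as those with the largest summed change among the 13 pairs listed as X-linked parent and retrogene, where both members were called and have a single window. Cox7b/Cox7b2, whose parent is also X-linked, was listed with the other respiratory pairs and was not a candidate. The window of Pgk1 is chrX:106186850-106187099 on the plus strand, and those of Pgk2, Pdha1 and Pdha2 are chr17:40208610-40208859, chrX:160138431-160138680 and chr3:141212356-141212605 on the minus strand. They are written 5′ to 3′ on the gene's strand, and capitals mark matches on either strand to 3 motifs, which did not overlap. The GC box was searched as GGGCGG and the TATA box as TATAAA. The third was the CCAAT box, searched by the letters of its name.
Pgk1: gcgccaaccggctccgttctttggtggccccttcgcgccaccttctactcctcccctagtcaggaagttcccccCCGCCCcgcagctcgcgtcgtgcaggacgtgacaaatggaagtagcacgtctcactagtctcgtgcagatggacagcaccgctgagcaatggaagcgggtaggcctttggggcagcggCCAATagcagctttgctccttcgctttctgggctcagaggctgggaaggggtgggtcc
Pgk2: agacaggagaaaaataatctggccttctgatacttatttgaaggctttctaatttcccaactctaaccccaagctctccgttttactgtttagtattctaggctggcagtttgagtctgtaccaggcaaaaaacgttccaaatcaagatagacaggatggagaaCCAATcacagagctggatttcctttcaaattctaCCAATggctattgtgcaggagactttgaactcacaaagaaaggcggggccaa
Pdha1: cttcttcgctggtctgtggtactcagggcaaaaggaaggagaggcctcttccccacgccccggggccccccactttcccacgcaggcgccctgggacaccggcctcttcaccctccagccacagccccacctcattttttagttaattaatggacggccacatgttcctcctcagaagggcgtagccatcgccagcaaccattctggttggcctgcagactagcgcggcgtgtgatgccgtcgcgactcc
Pdha2: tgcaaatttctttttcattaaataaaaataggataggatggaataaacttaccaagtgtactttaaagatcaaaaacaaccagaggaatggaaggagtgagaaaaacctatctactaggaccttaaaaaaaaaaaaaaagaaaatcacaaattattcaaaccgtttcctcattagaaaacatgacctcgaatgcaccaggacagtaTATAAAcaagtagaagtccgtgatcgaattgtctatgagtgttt
The X-linked windows are GC-rich, at 62.8% G and C for Pgk1 and 61.6% for Pdha1, and those of the copies are at 42.0% for Pgk2 and 31.6% for Pdha2. The Pgk1 window holds 1 GC box and 1 CCAAT box, that of Pgk2 holds 2 CCAAT boxes, that of Pdha2 holds 1 TATA box, and that of Pdha1 holds none of the 3. Among all 32851 windows of this length in the table, 32.7% hold a GC box, 33.8% a CCAAT box and 12.4% a TATA box, so a match is common and is a description only. Only 78.1% of the tested genes have a window, so base composition was not compared between risen and fallen genes.

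Further X-linked parents and their copies were measured. Cetn2, a centrin, was at 41.7, 42.0 and 34.3 FPKM against 7.28 FPKM, and its copy Cetn1 at 0.249, 0.298 and 0.107 FPKM against 1599 FPKM, which fell by 10.36 ± 0.15 (adjusted p = 0.000146). Prps1, which makes the ribose precursor of nucleotides, was at 151, 185 and 177 FPKM against 15.7 FPKM, and Prps1l1 was listed at 0 in every line against 296 FPKM. The ribosomal protein gene Rpl39 was at 3013, 5423 and 3272 FPKM against 10.6 FPKM, and its copy Rpl39l at 108, 56.4 and 42.1 FPKM against 682 FPKM, so the testis-type copy was still measured in stem cells. The Rpl39l call (fell by 3.40 ± 0.68, adjusted p = 0.0309) was lost under 5 alternatives, among them the same total (adjusted p = 0.0957) and leaving out AOS-14 (0.127). Rpl10l, at 149.5, 64.3 and 47.9 FPKM against 505 FPKM, was not called. Leaving out A129-2 made it a fall (adjusted p = 0.0277). For Gyk/Gk2, of glycerol kinase, the change lay in the copy: Gk2 was at 0, 0.0921 and 0 FPKM against 1285 FPKM, while Gyk was at 11.1, 7.06 and 7.35 FPKM against 5.58 FPKM and was not called. Cstf2 and its copy Cstf2t, polyadenylation factors, showed no such pattern, with Cstf2t at 25.3%, 18.8% and 14.1% of the pair in the lines and 22.4% in round sperm.

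Autosomal pairs followed the same pattern in energy metabolism. Gapdh was at 3690, 1609 and 6025 FPKM against 28.7 FPKM, and Gapdhs, the form bound to the sperm tail, at 0, 0.362 and 0 FPKM against 1369 FPKM. The Gapdh rise of 6.80 ± 0.95 (adjusted p = 0.0151) was lost without A129-2 (adjusted p = 0.0657). Ldhc, the testis lactate dehydrogenase, was at 0.576, 1.28 and 1.32 FPKM against 8314 FPKM, whereas Ldha was high in both cells, at 943, 723 and 1202 FPKM against 1720 FPKM, and was not called. Of the cytochrome oxidase subunits, Cox8c was at 0.717, 2.23 and 0.617 FPKM against 2025 FPKM and its partner Cox8a at 726, 751 and 805 FPKM against 22.0 FPKM. Cox6b2 stayed at 81.9, 93.8 and 81.8 FPKM in the lines against 1526 FPKM, between 14.2% and 21.9% of its pair. Cyct, the testis cytochrome c, kept between 31.1% and 47.0% of its pair in the lines against 96.7% in round sperm, and its difference of -2.36 ± 0.62 was not called (adjusted p = 0.0546), though it was among genes of at least 5 FPKM in any library (0.0457).

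Some chaperone, cytoskeletal and nuclear pairs were called in opposite directions, whereas in Cct6a/Cct6b, Calr/Calr3, Canx/Clgn and Pdia3/Pdilt the broadly expressed chaperone was not called. Hspa8, the constitutive HSP70, was at 1514, 1778 and 1424 FPKM against 32.1 FPKM and rose by 5.56 ± 0.18 (adjusted p = 0.000900), and Hspa2, the HSP70 of germ cells, at 3.33, 4.08 and 3.6 FPKM against 1492 FPKM, fell by 8.32 ± 0.14 (adjusted p = 0.000216). Txnrd1, the cytosolic thioredoxin reductase, was at 107, 135 and 144 FPKM against 17.4 FPKM, and Txnrd3 at 3.98, 2.95 and 2.81 FPKM against 576 FPKM. Hmgb1, a DNA-bending chromatin protein, was at 156, 253 and 245 FPKM against 15.1 FPKM, and Hmgb4 was listed at 0 in every line against 1177 FPKM. The rise of Hmgb1 was lost without AOS-14 (adjusted p = 0.0514). Tubb5, the main beta tubulin of dividing cells, was at 379, 517 and 503 FPKM against 1.2 FPKM and rose by 7.72 ± 0.26 (adjusted p = 0.000904). Tubb4b, a beta tubulin of cilia and flagella that many cells express, was at 188, 154 and 95.5 FPKM against 2513 FPKM and fell by 4.15 ± 0.50 (adjusted p = 0.0109). The Tubb4b call was lost without AOS-14 (adjusted p = 0.0664).

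In 4 pairs both members fell. Tbp, the TATA-binding protein, was at 18.1, 17.1 and 17.5 FPKM against 168 FPKM (fell by 3.18 ± 0.09, adjusted p = 0.000637), and its relative Tbpl1, needed for spermatid development, at 10.2, 8.77 and 9.53 FPKM against 415 FPKM (fell by 5.31 ± 0.12, adjusted p = 0.000441). The others were Pabpc1/Pabpc2, Ppp3ca/Ppp3cc and Brd2/Brdt. The calls of Pabpc1 (-1.55, adjusted p = 0.0310) and Brd2 (-1.77, adjusted p = 0.0219) were lost at the same total (adjusted p = 0.324 and 0.158), and that of Ppp3ca (-2.26, adjusted p = 0.00545) was lost there too (0.0723). Pabpc1 was also not called when any single line was left out (adjusted p between 0.0528 and 0.122), nor was Brd2 without A129-2 (0.0663) or without AOS-14 (0.0810). After quantile normalization Brd2 had a difference of 0.03. Reads of near copies can be split between them, so the transcripts of each pair were compared in a later annotation, GENCODE vM21. In 40 of 44 pairs with transcripts there, no stretch of 50 bases of the testis copy occurred in its partner. The exceptions were G6pdx/G6pd2 (8.66% of such stretches), Aldoa/Aldoart1 (4.69%), Gyk/Gk2 (1.47%) and Papola/Papolb (0.382%), whose values are less certain.

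The X chromosome differed from the autosomes as a whole. Of 672 X-linked genes tested 305 rose (45.4%) and 177 fell (26.3%), with a median difference of 1.29, whereas of 15172 autosomal genes 21.8% rose and 39.6% fell, with a median of -0.56. Single autosomes had medians from -0.98 (chromosome 12) to -0.08 (chromosome 8, where A129-2 stood apart, with a median of 0.29 against -0.31 and -0.34, and 8.07% of its summed FPKM against 4.37% and 4.65%), and between 17.2% and 25.0% of their genes rose, so X lay outside the range of all 19. Y-linked genes gave only 0%, 6.80e-05% and 1.08e-05% of the summed FPKM of the lines. The 7 tested passed the filter through round sperm alone, so a rise was not possible, and all fell (median -2.43). The X chromosome supplied 5.75%, 5.03% and 5.88% of the summed FPKM of the lines and 0.935% of round sperm.

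**Figure D4:**
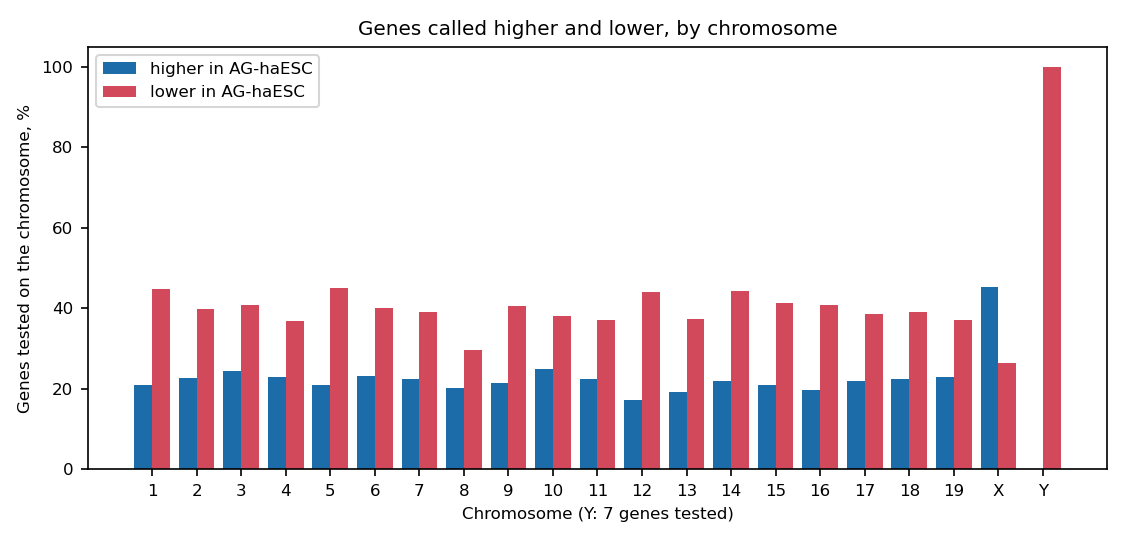
Bars give the percent of the tested genes of each chromosome that rose (blue) and fell (red) in AG-haESCs against round sperm. On every autosome more genes fell than rose, and on X 45.4% rose and 26.3% fell. On Y all 7 tested genes fell, but they passed the filter through round sperm alone and could not rise.

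Of 1040 X-linked genes listed, 495, 469 and 459 reached 1 FPKM in the lines and 383 in round sperm, so the number of X genes detected differed less than their level. Over the genes at 1 FPKM or more in a library, the X-linked median was 12.4, 11.2 and 12.0 FPKM in the lines against autosomal medians of 10.6, 10.8 and 9.91 FPKM. In round sperm it was 8.85 FPKM against an autosomal 16.5 FPKM. The X median was thus above the autosomal median in each line and below it in round sperm. Of 38 X-linked genes at 100 FPKM or more in every line, 22 (57.9%) were under 10 FPKM in round sperm, against 89 of 565 (15.8%) on the autosomes. In the other direction, of 20 X-linked genes at 100 FPKM or more in round sperm, 17 (85.0%) were under 10 FPKM in every line, against 1105 of 2346 (47.1%) on the autosomes.

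Several X-linked genes rose far. Bex1, a small adaptor protein, was at 632, 835 and 945 FPKM against 0.830 FPKM and rose by 8.76 ± 0.30 (adjusted p = 0.000991), and its relative Ngfrap1, also named Bex3, was at 681, 892 and 692 FPKM against 1.37 FPKM. Rps4x and Rpl36a, ribosomal proteins of the small and large subunit, were at 2520, 3443 and 3104 FPKM against 4.77 FPKM and at 2049, 3121 and 2259 FPKM against 10.9 FPKM. Slc25a5, the mitochondrial carrier that exchanges ADP and ATP, was at 919, 881 and 831 FPKM against 4.78 FPKM and rose by 7.24 ± 0.11 (adjusted p = 0.000166). The 3 lines lay close together for each of them, and round sperm was far below every line. X-linked genes in other lists rose as well, among them Dkc1 of the small nucleolar ribonucleoproteins (96.7, 114 and 142 FPKM against 0.705 FPKM), Atrx, a chromatin remodeller (32.0, 25.6 and 23.6 FPKM against 0.173 FPKM), and Msn, which ties actin to the membrane (66.6, 74.6 and 64.4 FPKM against 0.101 FPKM).

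The X-linked genes that fell include genes of spermatids. Akap4, the main protein of the fibrous sheath, was at 0, 0.0762 and 0 FPKM against 803 FPKM and fell by 9.62 ± 0.10 (adjusted p = 7.99e-05). Tsga8, a testis-specific gene, was at 0, 0.116 and 0 FPKM against 711 FPKM. Cypt1, Cypt2 and Cypt3, members of a spermatid gene family, were at no more than 0.417 FPKM in a line and at 245, 234 and 246 FPKM in round sperm. Tsga8 and the Cypt genes, like Slc25a5 among those that rose, lie within the 20 most changed X-linked genes of each direction, a cutoff chosen after values were seen. The number of X-linked genes that fell was 102 without genes listed at exactly 0 in a group. In a list drawn up as sex-linked families and neighbours, 13 of 23 tested fell and 5 rose (median -1.44). These are 56.5% and 21.7%, against 39.1% and 22.8% of all genes. The list is not purely sex-linked, as 1700003E16Rik, which fell, is annotated on chromosome 6. Akap4 and the Y-linked Eif2s3y were under 1 FPKM in every line and could not rise, so the share that fell is partly set by the filter. Without genes listed at exactly 0 in a group 8 fell. The rises went down to 3 without A129-2 or without AOS-16. Xlr3a and Xlr4a, of a multicopy lymphocyte and germ cell family, rose, with Xlr3a at 64.8, 28.3 and 123 FPKM against 0.127 FPKM. The Xlr3a rise of 5.78 ± 1.03 (adjusted p = 0.0247) was lost without A129-2 (adjusted p = 0.0905) and without AOS-16 (0.0546). Members of such families have near-identical copies, and reads may be split among them.

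Nuclear lists held members of both directions. Among 20 genes of the nuclear lamina and of the LINC complex, which links the nucleus to the cytoskeleton, 5 rose and 8 fell (median -0.10), shares of 25.0% and 40% that are close to those over all genes (22.8% and 39.1%), and at the same total 8 rose and 5 fell. Without AOS-16 3 rose, and without AOS-14 5 fell. The largest falls were of testis members: Spag4 was at 0.329, 0.311 and 0.0705 FPKM against 463 FPKM and Sun3 at 0.118, 0.113 and 0.101 FPKM against 192 FPKM. Lbr, the lamin B receptor that holds heterochromatin at the envelope, was at 46.7, 64.6 and 62.0 FPKM against 4.30 FPKM and rose by 3.46 ± 0.26 (adjusted p = 0.00442). Emd, X-linked, which encodes emerin, was at 118, 126 and 133 FPKM against 25.8 FPKM. Sun1, the broadly expressed LINC protein, was at 46.9, 51.3 and 60.9 FPKM against 55.1 FPKM, inside the range of the lines, and was not called. After quantile normalization it was called, with a difference of 1.35.

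Histone variants also went both ways, with 36.8% higher and 21.1% lower, against 22.8% and 39.1% of all genes. Of 19 tested 7 rose and 4 fell (median 0.09), and 2 rose without AOS-14 and 4 without AOS-16. The linker histones of spermatids Hils1 and H1fnt were listed at 0 in all 3 lines and stood at 1584 and 461 FPKM in round sperm. Cenpa, the centromeric histone loaded in each cell cycle, was at 53.6, 145 and 118 FPKM against 0.323 FPKM and rose by 6.21 ± 0.74 (adjusted p = 0.0108), a call lost without AOS-14 (adjusted p = 0.0538) and without AOS-16 (0.0578). H2afz, the variant found at promoters in most cells, was at 440.0, 549 and 367 FPKM against 440.2 FPKM and was not called as deposited (difference 0.02 ± 0.30). It was called higher at the same total (1.11, adjusted p = 0.0243), and quantile normalization gave a called difference of 1.61.

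Of 39 chromatin remodelling and histone chaperone genes 12 rose and 11 fell, 30.8% and 28.2% against 22.8% and 39.1% of all genes. The median was 0.26, and at the same total 16 rose and 6 fell. Those that rose include Hells, a remodeller needed for DNA methylation (79.8, 68.7 and 67.5 FPKM against 5.47 FPKM). Brdt, a testis protein required for histone removal in spermatids, was at 0.978, 3.93 and 0.922 FPKM against 360.1 FPKM and fell by 7.09 ± 0.77 (adjusted p = 0.00896). Chd5, a remodeller of the histone to protamine exchange, was at 0.869, 0.859 and 1.32 FPKM against 126 FPKM. Among 37 nuclear import and export genes 12 rose and 11 fell, 32.4% and 29.7% against the same shares of all genes. The median was 0.26, and at the same total 18 rose and 6 fell. Without AOS-14 6 fell. Kpna2 and Ipo4, importins abundant in germ cells, were at 58.7, 65.1 and 30.3 FPKM against 648 FPKM and at 15.5, 22.1 and 18.2 FPKM against 269 FPKM. Kpna3, another importin alpha, was higher in the lines, at 27.7, 27.5 and 24.7 FPKM against 3.47 FPKM. The Kpna2 call (fell by 3.70 ± 0.58, adjusted p = 0.0191) was lost without A129-2 (adjusted p = 0.0656) and without AOS-14 (0.0695).

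Of 48 transcription regulators of the E2F, MYC and basal machinery 18 rose and 16 fell (median 0.28). These are 37.5% and 33.3%, against 22.8% and 39.1% of all genes. Mycn, a driver of growth, was at 30.1, 32.0 and 26.1 FPKM against 0.0766 FPKM and rose by 4.81 ± 0.17 (adjusted p = 0.00100). Taf1, the largest TFIID subunit and X-linked, was at 16.8, 19.9 and 18 FPKM against 0.164 FPKM. The largest falls included regulators of male germ cells: Gtf2a1l, the germ cell form of TFIIA, was at 0.302, 0.107 and 0.0648 FPKM against 675 FPKM, Sox30 at 0.116, 0.362 and 0.265 FPKM against 154 FPKM, and Tcfl5 at 7.25, 8.69 and 10.2 FPKM against 412 FPKM. Without AOS-14, 9 of the 48 rose.

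More genes for making ribosomes and for splicing rose than fell. Of 34 ribosome biogenesis genes 20 rose (58.8%, against 22.8% of all genes) and 3 fell, 1 of them without AOS-16 (median 2.33, or 2.82 relative to all genes). Ncl, the nucleolar protein nucleolin, was at 166, 181 and 164 FPKM against 2.21 FPKM and rose by 5.74 ± 0.11 (adjusted p = 0.000300). Nop56, a core protein of the particles that methylate ribosomal RNA, was at 143, 202 and 140.1 FPKM against 2.38 FPKM. Its partner Nop58 was at 175, 143 and 109 FPKM against 90.4 FPKM and was not called as deposited. Quantile normalization (adjusted p = 0.0151) and the same total without genes under 200 nt (0.0438) made it a rise. Wdr12, a 60S maturation factor, was higher in round sperm, at 153 FPKM against 17.3, 26.0 and 19.8 FPKM, and fell by 2.82 ± 0.29 (adjusted p = 0.00828), a call lost without AOS-16 (adjusted p = 0.0514).

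Of 39 splicing factors 17 rose (43.6%, against 22.8% of all genes) and 0 fell (median 1.16). At the same total 29 rose, and 10 rose without AOS-16. U2af1 and U2af2, the pair that marks the 3′ splice site, were at 207, 314 and 248 FPKM against 22.4 FPKM and at 132, 157 and 143 FPKM against 15.0 FPKM. Of 20 cytosolic tRNA synthetases 10 rose (median 1.38), but without AOS-14 or without AOS-16 only 3 rose. Tars, which charges threonine tRNA, was at 68.9, 94.4 and 97.0 FPKM against 2.22 FPKM and rose by 4.75 ± 0.28 (adjusted p = 0.00276). Aars and Kars were at 156, 123 and 125 FPKM against 96.4 FPKM and at 161, 117 and 105 FPKM against 97.1 FPKM, and were not called. Both lie on chromosome 8, and both were called higher after quantile normalization (adjusted p = 0.0118 and 0.0221).

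Synthesis of nucleotides and of one-carbon units rose further than the median gene. Of 26 purine and pyrimidine genes 19 rose and 4 fell, 73.1% and 15.4% against 22.8% and 39.1% of all genes. The median was 2.74, or 3.24 relative to all genes, and without AOS-16 12 rose and 2 fell. Atic, which completes the purine ring, was at 64.9, 53.4 and 46.6 FPKM against 0.0761 FPKM and rose by 5.69 ± 0.25 (adjusted p = 0.00154). Ctps, the CTP synthase, was at 57.1, 68.6 and 64.1 FPKM against 1.98 FPKM, and Dut, which keeps uracil out of DNA, at 63.5, 108 and 83.5 FPKM against 2.85 FPKM. Within the purine branch the direction was not uniform: Gmps, the GMP synthase, was at 27.0, 33.7 and 34.1 FPKM against 249.6 FPKM and fell by 2.95 ± 0.20 (adjusted p = 0.00350), and Impdh2, the enzyme before it, was at 163, 301 and 232 FPKM against 252 FPKM and was not called. After quantile normalization Impdh2 was called with a difference of 1.58.

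Of 20 genes of serine, glycine and one-carbon metabolism 13 rose and 1 fell, 65.0% and 5.00% against 22.8% and 39.1% of all genes. The median was 2.92, and the fall was not called without A129-2 or without AOS-16. Psat1, of serine synthesis, was at 94.7, 168 and 182 FPKM against 1.26 FPKM and rose by 5.99 ± 0.51 (adjusted p = 0.00558). Mthfd1l, of mitochondrial formate production, was at 22.0, 21.5 and 28.9 FPKM against 0.208 FPKM. Phgdh, which starts the serine pathway, was at 36.0, 127 and 124 FPKM against 12.1 FPKM, so A129-2 lay well below the AOS lines, and it was not called (difference 2.68 ± 1.01, adjusted p = 0.111). It was called higher without A129-2 (adjusted p = 0.00912) and at the same total (0.0437). Of 26 amino acid and glucose transporters 11 rose and 3 fell, 42.3% and 11.5% against the same shares of all genes (median 1.49). Slc2a1, the glucose carrier GLUT1, was at 320.2, 442 and 906 FPKM against 0.542 FPKM, while Slc2a5, a fructose carrier, was at 0.336, 0.174 and 0.481 FPKM against 699.6 FPKM and Slc16a7, a lactate and pyruvate carrier, at 0, 0.0456 and 0 FPKM against 649 FPKM. Slc16a1, another carrier of lactate and pyruvate, was at 35.9, 46.8 and 50.4 FPKM against 0.802 FPKM. Slc16a3, of the same family, was measured in both cells, at 59.7, 54.5 and 139 FPKM against 20.7 FPKM, and was not called as deposited.

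Mitochondrial lists were mixed. Of 24 citric acid cycle genes 11 rose (45.8%) and 4 fell (16.7%), against 22.8% and 39.1% of all genes. The median was 1.11, and at the same total 14 rose and 1 fell. Idh3g, an X-linked subunit of isocitrate dehydrogenase, was at 138, 191 and 163 FPKM against 6.18 FPKM and rose by 4.51 ± 0.24 (adjusted p = 0.00231), whereas Sucla2, a subunit of succinyl-CoA synthetase, was at 42.2, 63.6 and 43.4 FPKM against 776 FPKM and fell by 3.96 ± 0.33 (adjusted p = 0.00535). Of 45 nuclear genes of the respiratory chain 10 rose and 10 fell, 22.2% each against 22.8% and 39.1% of all genes (median -0.03, or 0.47 relative to all genes). At the same total 20 rose, and without AOS-16 6 rose and 1 fell. Ndufa4 was at 429, 632 and 402 FPKM against 6.36 FPKM and rose by 6.02 ± 0.36 (adjusted p = 0.00279), while Atp5b, the catalytic ATP synthase subunit, was at 1219, 1346 and 1281 FPKM against 789 FPKM and was not called as deposited (difference 0.70). At the same total Atp5b was called higher (1.79, adjusted p = 0.00982). Ndufv2 fell by 1.92 ± 0.26 (adjusted p = 0.0143), at 88.6, 126 and 102 FPKM against 398 FPKM, but its call was lost at the same total (a difference of -0.84) and without AOS-16 (0.0743).

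Redox and iron genes more often rose. Of 33 redox genes 17 rose and 8 fell, 51.5% and 24.2% against 22.8% and 39.1% of all genes (median 2.59). Txn1, thioredoxin, was at 343, 622 and 397 FPKM against 1.30 FPKM and rose by 7.58 ± 0.45 (adjusted p = 0.00277), while the testis thioredoxins Txndc2 and Txndc8 were at 413 and 569 FPKM in round sperm and at no more than 0.0703 FPKM in a line. Gpx1, glutathione peroxidase, was at 434, 599 and 424 FPKM against 2.40 FPKM. Gstm5, a glutathione transferase, was at 5.02, 8.78 and 4.44 FPKM against 4960 FPKM and fell by 9.50 ± 0.45 (adjusted p = 0.00186). Of 15 iron genes 8 rose and 2 fell, 53.3% and 13.3% against the same shares of all genes (median 1.55). Without AOS-14 4 rose. Ftl1, the ferritin light chain, was at 4609, 5095 and 3973 FPKM against 7.77 FPKM and rose by 9.01 ± 0.20 (adjusted p = 0.000386), and Tfrc, the transferrin receptor, was at 93.2, 87.4 and 154 FPKM against 0.525 FPKM. The metallothionein Mt1 was at 542, 1068 and 1074 FPKM against 1193 FPKM and was not called.

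DNA repair genes included both directions, with 41.3% higher and 21.7% lower, against 22.8% and 39.1% of all genes. Of 46 tested 19 rose and 10 fell (median 0.92), at the same total 29 rose and 2 fell, and without AOS-14 11 rose and 6 fell. Ung, which removes uracil from DNA, was at 52.9, 80.3 and 43.3 FPKM against 2.10 FPKM. The DNA ligases separated: Lig1, of replication, was at 53.3, 95.3 and 82.7 FPKM against 4.72 FPKM, and Lig3, of base excision and mitochondrial repair, at 12.0, 8.80 and 7.16 FPKM against 131 FPKM. The Lig1 rise of 3.73 ± 0.43 (adjusted p = 0.0103) was lost without AOS-14 (adjusted p = 0.0502) and without AOS-16 (0.0570), and Lig3 (fell by 3.71 ± 0.34, adjusted p = 0.00657) was not called without AOS-14 (0.0519).

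Protein turnover genes split between spermatid ligases and the general machinery. Of 36 ubiquitin genes of spermatids 23 fell and 4 rose, 63.9% and 11.1% against 39.1% and 22.8% of all genes (median -3.0). March10, a ubiquitin ligase of spermatids, was at 0.0377, 0.0467 and 0.0840 FPKM against 1155 FPKM and fell by 10.10 ± 0.09 (adjusted p = 5.95e-05), and Rnf151, a ring finger protein of the acrosome region, at 0, 0.205 and 0.0922 FPKM against 575 FPKM. Of the 4 that rose, Klhl13, Ubqln2 and Siah1b are X-linked, and Klhl13 was at 39.0, 52.4 and 53.2 FPKM against 0.0605 FPKM. The ubiquitin gene Ubb, at 977, 406 and 817 FPKM against 1854 FPKM, was not called.

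Subunits of the proteasome did not move together, with 41.9% higher and 16.1% lower, against 22.8% and 39.1% of all genes. Of 31 tested 13 rose and 5 fell (median 0.43, or 0.93 relative to all genes), 17 rose and 3 fell at the same total, and 7 rose and 3 fell without AOS-16. Psma7, an alpha ring subunit, was at 215, 384 and 333 FPKM against 11.2 FPKM and rose by 4.64 ± 0.43 (adjusted p = 0.00676), with its testis copy Psma8 at 12.9, 13.6 and 11.6 FPKM against 39.5 FPKM. Psmc3 and Psmc2, ATPases of the regulatory cap, were at 146, 159.6 and 115 FPKM against 1221 FPKM and at 80.7, 81.7 and 68.3 FPKM against 589.7 FPKM, and fell by 3.12 ± 0.25 (adjusted p = 0.00506) and 2.93 ± 0.16 (adjusted p = 0.00246). Psmb6 and Psmb7, catalytic subunits, were within the range of the lines or close to it and were not called, and after quantile normalization they were called with differences of 1.37 and 1.58. Subunits thus stood in different proportions to each other in the lines and in round sperm.

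Chaperones were called in both directions. Of 24 genes of the CCT chaperonin and HSP90 system 5 rose and 5 fell, 20.8% each against 22.8% and 39.1% of all genes (median 0.01), and at the same total 13 rose and 1 fell. Without A129-2 2 fell, and without AOS-16 3. Hspd1, the mitochondrial chaperonin, was at 319, 422 and 303 FPKM against 5.04 FPKM and rose by 5.84 ± 0.26 (adjusted p = 0.00169). Hsp90ab1, the constitutive HSP90, was at 2072, 2530 and 2536 FPKM against 85.2 FPKM and rose by 4.78 ± 0.19 (adjusted p = 0.00127), and Hsp90aa1, the inducible form that germ cells also express, was at 1321, 2129 and 1501 FPKM against 1711 FPKM. Hsp90aa1 was not called as deposited (difference -0.08 ± 0.36) and was called higher at the same total (1.01, adjusted p = 0.0139). Tcp1, a CCT subunit, was at 153, 163 and 164 FPKM against 1437 FPKM and fell by 3.16 ± 0.10 (adjusted p = 0.000798). Cct4 and Cct7 fell by 1.29 each (adjusted p = 0.0434 and 0.00449), were not called at the same total and had differences of 0.27 and 0.32 after quantile normalization. Without A129-2, AOS-14 or AOS-16 the Cct4 difference was -1.13, -1.43 or -1.31, close to that with all lines, though it was not called.

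Secretory genes included a difference between the lines. Of 44 Golgi and secretory genes 10 rose and 10 fell, 22.7% each against 22.8% and 39.1% of all genes (median 0.07). At the same total the counts were 18 and 5, and 4 rose without AOS-14 and 6 without A129-2. Ssr4, X-linked, of the translocon, was at 171, 221 and 176 FPKM against 4.56 FPKM and rose by 5.09 ± 0.21 (adjusted p = 0.00146), while the testis chaperones Clgn and Pdilt were at 3.53, 0.779 and 2.18 FPKM against 1126 FPKM and at 0, 0.0522 and 0 FPKM against 383 FPKM. Hspa5 and Hsp90b1, chaperones of the endoplasmic reticulum, were at 222, 269 and 1146 FPKM against 393 FPKM and at 193, 300.3 and 1191 FPKM against 522 FPKM. AOS-16 thus lay above round sperm and the other lines below it for both, and neither was called. P4hb, which forms disulfide bonds there, was also highest in AOS-16, at 212, 224 and 633 FPKM against 13.4 FPKM, and its rise of 4.44 ± 0.87 (adjusted p = 0.0303) was lost without A129-2 (adjusted p = 0.0760) and without AOS-14 (0.103).

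Of 36 autophagy and lysosome genes 17 rose and 8 fell, 47.2% and 22.2% against 22.8% and 39.1% of all genes. The median was 2.00, or 2.50 relative to all genes. Ctsd, a protease of the lysosome, was at 153, 205 and 203 FPKM against 0.524 FPKM and rose by 6.94 ± 0.25 (adjusted p = 0.00106). The fallen members named here act in autophagosome formation: Atg9a was at 5.95, 5.32 and 6.72 FPKM against 235 FPKM and fell by 5.08 ± 0.16 (adjusted p = 0.000867), and Gabarap at 64.4, 68.1 and 61.3 FPKM against 758 FPKM fell by 3.54 ± 0.11 (adjusted p = 0.000774). Gabarapl2, a close relative, was at 686, 418 and 183 FPKM against 59.5 FPKM, higher in every line, and was not called (difference 2.63 ± 0.95, adjusted p = 0.101), except after quantile normalization (adjusted p = 0.0224) and without genes at exactly 0 (0.0386). It lies on chromosome 8 and was highest in A129-2.

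Cell surface genes showed the highest median of the lists. Of 37 adhesion and junction genes 27 rose and 1 fell (median of the list 3.35, or 3.85 relative to all genes), against 22.8% of all genes that rose. Itgb1, the beta 1 integrin, was at 150.5, 78.1 and 82.1 FPKM against 0.276 FPKM and rose by 6.29 ± 0.52 (adjusted p = 0.00532). Cd81, a tetraspanin, was at 241, 221 and 246 FPKM against 2.16 FPKM, and Cd9, another tetraspanin, at 366, 634 and 317 FPKM against 2.23 FPKM. Cdh1, E-cadherin, was at 189, 60.6 and 87.7 FPKM against 0.283 FPKM, and its rise of 6.30 ± 0.82 (adjusted p = 0.0130) was lost without AOS-16 (adjusted p = 0.0640). Cdh1 and Itgb1 lie on chromosome 8 and were highest in A129-2. Cdh2, N-cadherin, fell by 4.05 ± 0.53 (adjusted p = 0.0134), at 0.880, 1.14 and 2.78 FPKM against 40.1 FPKM, but not without AOS-14 (adjusted p = 0.0751). Epcam and Tjp1 were at 25.2, 21.7 and 49.5 FPKM against 27.3 FPKM and at 25.8, 18.9 and 22.6 FPKM against 29.4 FPKM, and neither was called.

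Of 43 growth factor receptors and ligands 20 rose and 3 fell, 46.5% and 6.98% against 22.8% and 39.1% of all genes. The median was 1.80, and 11 rose without AOS-14 or without AOS-16. Epha2, an ephrin receptor, was at 85.2, 42.0 and 73.0 FPKM against 1.33 FPKM and rose by 4.80 ± 0.52 (adjusted p = 0.00919), a call lost without AOS-16 (adjusted p = 0.0526). Vegfa was at 28.0, 71.9 and 132 FPKM against 0.176 FPKM, with AOS-16 highest, and its rise was lost without AOS-14 (adjusted p = 0.120) and without AOS-16 (0.0635). Lefty1, an inhibitor of Nodal, was at 265, 8.15 and 6.48 FPKM against 0.131 FPKM, above round sperm in every line but with A129-2 far from the others, and was not called (adjusted p = 0.256). Leaving out A129-2 made it a rise (adjusted p = 0.0205). Feeder fibroblast markers summed to 151, 173 and 218 FPKM in the lines and 40.6 FPKM in round sperm. Col1a1 among them was at 5.68, 39.9 and 52.1 FPKM, lowest in A129-2, and Vim, which stem cells also express, at 132, 68.7 and 92.4 FPKM was the 1 of 14 tested that rose. The part of feeder cells in the adhesion and growth factor lists was not tested.

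Cytoskeletal genes were also called in both directions. Of 47 actin genes 21 rose and 17 fell, 44.7% and 36.2% against 22.8% and 39.1% of all genes. The median was 0.67, and at the same total 23 rose and 12 fell. Myh9, non-muscle myosin, was at 62.1, 87.7 and 83.8 FPKM against 0.355 FPKM and rose by 5.85 ± 0.27 (adjusted p = 0.00181), and Tpm1, tropomyosin, was at 109, 111 and 81.4 FPKM against 1.25 FPKM. The actin-like genes Actl7a and Actl7b, of the sperm head, were at 526 and 1543 FPKM in round sperm and at no more than 0.175 FPKM in a line. Actg1, cytoplasmic gamma actin, was at 1215, 999 and 897 FPKM against 1124 FPKM and was not called. Of 33 kinesins and transport motors 4 rose (12.1%) and 17 fell (51.5%), and 8 and 11 at the same total. The median was -1.20, or -0.70 relative to all genes. Kif2b and Kif9 were at 737 and 404 FPKM in round sperm and at no more than 0.486 FPKM in a line. Klc1, a light chain of the transport kinesin, was at 22.6, 23.4 and 29.4 FPKM against 2.62 FPKM and rose by 2.84 ± 0.21 (adjusted p = 0.00441). Kif23, a motor of cytokinesis, was at 22.9, 28.7 and 58.0 FPKM against 42.9 FPKM and was not called. The lines had been sorted for cells in G0/G1, and the part of that sort in the levels of cell division genes was not tested.

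Genes named for earlier germ cells did not all follow the spermatid genes. Sohlh2, a transcription factor of spermatogonia and oocytes, was at 52.2, 46.3 and 41.0 FPKM against 2.09 FPKM and rose by 3.93 ± 0.19 (adjusted p = 0.00186), and Kit, the receptor of stem cell factor, was at 17.1, 25.2 and 22.9 FPKM against 1.51 FPKM. Stra8, which germ cells express as they enter meiosis, was at 28.8, 9.80 and 24.2 FPKM against 0.0732 FPKM, above round sperm in all 3 lines. Its rise of 4.23 ± 0.78 (adjusted p = 0.0264) was lost without A129-2 (adjusted p = 0.0740) and without AOS-16 (0.0992). Of 13 spermatocyte markers tested 9 fell (69.2%, against 39.1% of all genes), with a median relative to all genes of -2.27. Sycp3, a protein of the meiotic chromosome axis, was at 17.7, 9.31 and 3.26 FPKM against 90.2 FPKM and was not called (adjusted p = 0.0822), except without genes at exactly 0 (0.0281), and Hormad1, another axis protein, was at 23.9, 18.2 and 18.4 FPKM against 25.1 FPKM, close to round sperm in every line. Nanos2 was at 0 in all 4 libraries, and Gfra1, a receptor of spermatogonial stem cells, was at no more than 0.0257 FPKM in a line and at 10.8 FPKM in round sperm.

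Genes with provisional names were far more often lower than higher. Of 1932 tested genes with symbols of the Gm, Rik or clone type 1287 fell (66.6%) and 144 rose (7.45%), and they made up 20.7% of all genes that fell and 3.96% of those that rose. Of 1039 tested genes annotated as long noncoding RNA 741 fell (71.3%) and 54 rose. Over all genes 39.1% fell and 22.8% rose. More genes reached 1 FPKM in round sperm (12515) than in the lines (11406, 11710 and 11602). Genes under 1 FPKM in every line passed the filter through round sperm alone and could not rise. How many genes of these classes that covers was not counted, so the shares are a description only. Among the 15 genes with the largest falls Snord37, Mir7666 and Mir3968 were at 4960, 2848 and 2814 FPKM in round sperm and listed at 0 in all lines. These are short RNAs, for which a level per length rests on few bases, and they do not stand for their class. Of 176 tested genes annotated as miRNA or snoRNA, 29 fell (16.5%, against 39.1% of all genes) and 0 rose. Their median difference was 1.82. Across all genes, 1017 of those that fell were listed at 0 in all 3 lines and 230 of those that rose were listed at 0 in round sperm, and for these no fold can be given.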

How the data were processed

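PolyA RNA of 3 AG-haESC lines and of 1 round sperm sample was sequenced, with 1 library each. The authors deposited FPKM values per gene in a table whose header names no unit. FPKM is taken from the submitters' processing notes, which name Cuffdiff 2.2.1, TopHat2 2.0.13 and the build mm9. No source used here gives the settings, the strand or the scaling between libraries. Samples were grouped by their labels.

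Genes with an FPKM of at least 1 in any of the 4 libraries were fitted on log2(FPKM + 1) by limma 3.58.1 (R 4.3.3), whose variance prior followed the mean level. The script was tested on simulated data. The 2 libraries of XX embryonic stem cells served only to check genes listed at 0. Named genes are up to 4 called members per list and direction, up to 2 uncalled members per list with the highest mean, both members of every pair, the 15 largest calls each way, and the markers. The comparison, the 35 program lists, the 9 marker lists and the pairs were chosen with earlier results of these data known. In all, 11 alternatives were tried. FPKM keep no exact counts, so no count test or counting interval is given.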

Additional observations from a re-analysis of the deposited data

How the results depend on the processing

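Over 11 alternatives, the genes that rose numbered between 2399 and 5252, against 3632, and those that fell between 4481 and 6201, against 6232. Leaving out 1 line gave 2399 to 3464 rises (lowest without AOS-14), and 15 to 20 pairs called in opposite directions, against 24 (lowest without AOS-14). Without genes at exactly 0 in a group 102 X-linked genes fell, against 177. The called members of the 35 program lists, 747 in all, stayed between 593 and 830. Of 464 named genes, 54 lost their call without AOS-14, 55 without AOS-16, 32 without A129-2 and 33 at the same total.

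Quantile normalization turned the sign of 14 named genes that were called before it or after it. The cause was not tested. Calm2 went to 1.68, Impdh2 to 1.58, Psmb7 to 1.58, Psmb6 to 1.37, Sun1 to 1.35, Adss to 0.59, Dld to 0.39, Cct7 to 0.32, Ndufb5 to 0.31, Cct4 to 0.27, Atp5j to 0.20, Fkbp4 to 0.13, Nop14 to 0.08 and Brd2 to 0.03. Hsp90aa1 went to 1.01 at the same total.

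No paired analysis was possible because round sperm is a single library and the lines share no replicate number with it beyond the first. Depth differed between lines, and AOS-14 was the deepest.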
